A study of Homo sapiens with 6 samples.

Results

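The genes described here encode the lysosomal proton pump, the cathepsins and a set of lysosomal membrane proteins. They were the protein-coding genes whose symbols begin with ATP6V0, ATP6V1 or ATP6AP, the cathepsins named CTS plus 1 letter, and LAMP1, LAMP2, LAMP3, LAMP5, MCOLN1, SCARB2, TFEB and TFE3. The rule uses symbols alone and no measured value, though it was drawn up with earlier results of these data known. The rule gave 50 genes of the 57820 in the deposited table. They comprised 9 genes named for the membrane sector V0 of the pump, 15 named for its cytosolic sector V1, 3 for accessory proteins, 15 cathepsins, 6 membrane proteins and 2 transcription factors.

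RNA was sequenced from motor neurons made from H9, an established human embryonic stem cell line. Motor neuron progenitors of the wild-type line (labelled WT) were differentiated with 0.01 µM RA and 0.1 µM SAG (retinoic acid and a Smoothened agonist), and both groups shared these agents. One group of 3 libraries came from neurons under normal gravity (NG), and the other group of 3 came from neurons in simulated microgravity (SMG). A 2D clinostat, which turns the culture around 1 axis, gave the simulated condition, and the labels leave out how long it ran. They do not say whether libraries of a group came from separate cultures, so p-values measure the spread between libraries and that spread may be technical.

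The vacuolar ATPase is a rotary pump that uses ATP to move protons into lysosomes, endosomes and synaptic vesicles. Its V1 sector hydrolyses ATP in the cytosol, and its V0 sector carries protons through the membrane. The acid lumen lets cathepsins, the proteases of the lysosome, mature and work, while heavily glycosylated membrane proteins such as LAMP1 and LAMP2 line the inner face of the membrane. TFEB and TFE3 are transcription factors that enter the nucleus when lysosomes are stressed or nutrients are short. They bind a promoter element with the core CACGTG, the CLEAR element, that many genes of this kind carry, and neurons depend on lysosomes that travel along the axon.

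Values are given in CPM, which are counts divided by library size and scaled between libraries by the trimmed mean of M-values (TMM). Differences are log2 fold changes, SMG minus NG, with their standard error (SE), and a gene was called changed when its p-value from edgeR's quasi-likelihood test, adjusted over 17803 genes, was under 0.05. Total counts ranged from 16329907 to 22685870 per library, and the 50 genes took 0.218 to 0.220% of the counts in NG and 0.225 to 0.228% in SMG. Motor neuron markers summed to between 2492 and 2534 CPM in NG and between 2477 and 2531 CPM in SMG. Of these 8 markers 6 were higher and 1 lower, where 17.3% and 18.5% of all tested genes were higher and lower. After each library's trend with transcript length and GC content was removed, 4 of the 8 were higher and 0 lower. Of 10 markers of macrophages and microglia, cells rich in lysosomes, C1QA, C1QB, SPI1 and AIF1 had no count in any library. AIF1, like the pluripotent marker POU5F1, lies near ATP6V1G2, where most genes had low counts, so its value says little about these cells. The sum of the 10 macrophage and microglia markers was 0.488 to 1.23 CPM in NG and 0.661 to 1.14 CPM in SMG. Ventral spinal progenitor markers summed to between 2445 and 2703 CPM in NG and between 2486 and 2653 CPM in SMG. Of these 6 markers 1 was higher and 2 lower, and with the trend removed 0 were higher and 2 lower. Of 6 astrocyte markers 2 were tested and 1 was lower, and the sum of the 6 was 257 to 265 CPM in NG and 231 to 244 CPM in SMG. The other astrocyte markers had counts too low for testing, so this sum rests on the 2 tested. Mesenchyme markers summed to between 4.69 and 4.90 CPM in NG and between 3.16 and 4.42 CPM in SMG (1 lower of 3 tested), and pluripotent markers to between 83.2 and 89.4 CPM in NG and between 74.1 and 81.1 CPM in SMG (1 lower of 2 tested). Markers of kidney and osteoclast cells that use other pump isoforms summed to 0.554 CPM or less in each library, with FOXI1 and CALCR at 0. The part of these cells in the results below was not tested, and in bulk RNA fewer cells of a type cannot be told apart from less RNA per cell.

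Both directions were seen among the 50 genes. Filtering on low counts left 39 for testing. Of these, 13 were higher in SMG, 9 were lower and 17 were not called. These are 33.3% and 23.1% of those tested, where 17.3% and 18.5% of all 17803 genes were higher and lower. In either direction the share was 56.4% against a background of 35.8%. Called genes are more frequent at higher levels: with a mean of 10 CPM or more, 49% of 10424 genes were called, and 17 of 27 of the lysosomal genes (63%). At that level 10 of the 27 were higher (37%, background 22.7%) and 7 were lower (25.9%, background 26.3%). NG and SMG values did not overlap for 23 of the 39 genes (59%), and for 46.3% of all tested genes. The median log2 fold change was 0.05 over the 39 genes and 0.00 over all tested genes.

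Most differences were small. Only CTSC, CTSV and ATP6V1FNB were called with a change of 1.5-fold or more. The median size was 1.23-fold for the genes that rose and 1.21-fold for those that fell. The 11 genes left out by the filter were CTSE, CTSG, CTSS, CTSW, LAMP3, TFEB, ATP6V0A4, ATP6V0D2, ATP6V1G2, ATP6V1G2-DDX39B and ATP6V1G3.

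**Figure D1:**
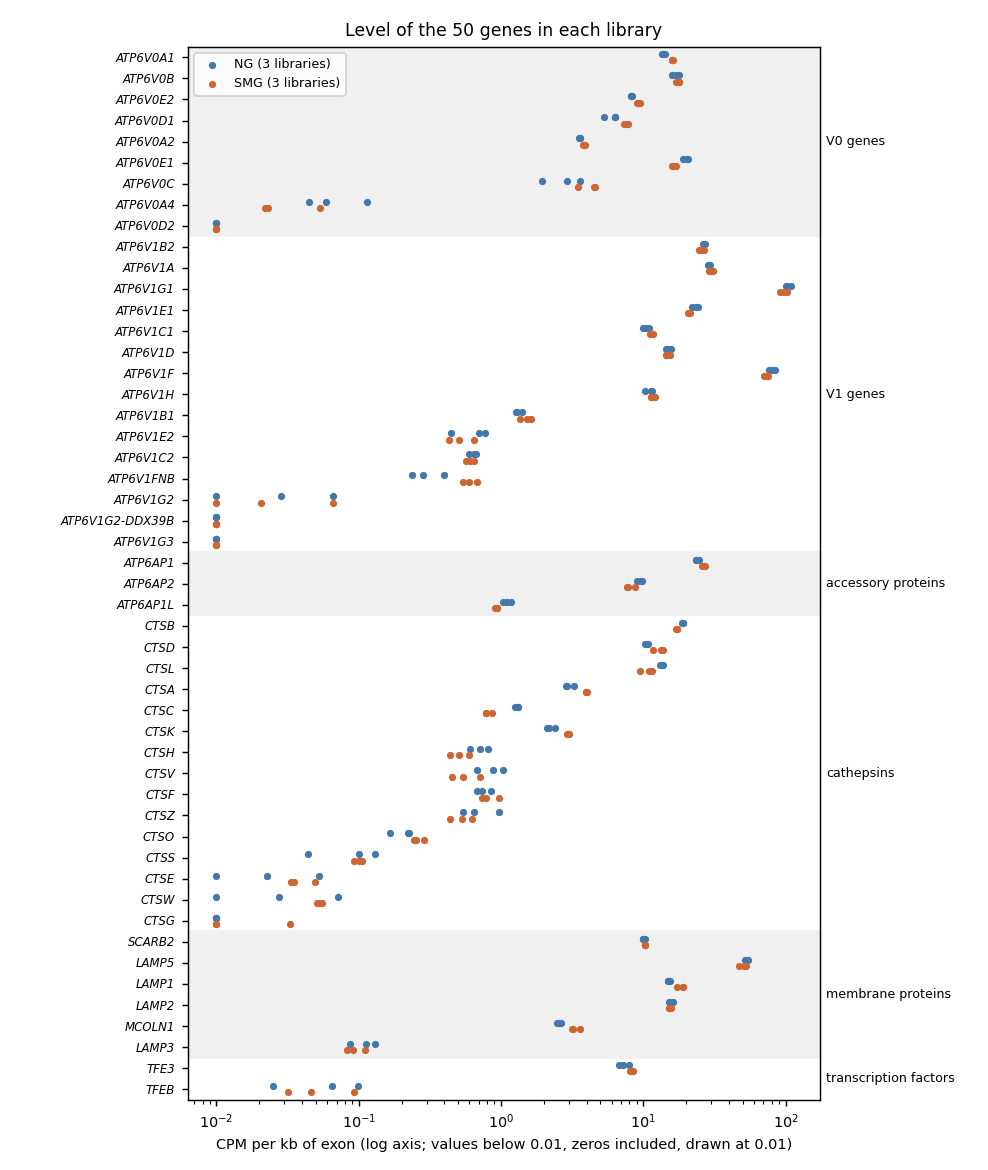
Level of each of the 50 genes in every library, in CPM per kilobase of exon on a log axis, grouped by role; blue points are the 3 NG libraries and orange points the 3 SMG libraries. ATP6V1G1 and ATP6V1F stood highest, and the genes at the left edge of the axis had few or no counts.

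Promoter sequences are shown first because, of the called genes with a window to search, 6 that rose and none that fell carried the E-box CACGTG. Of those whose window lacked it, 4 rose and 7 fell, and the remaining called genes had no window. A promoter of 300 bases, 250 before and 50 after the start, was found for 34 of the 50 genes in RefSeq's table for GRCh38.p14. All 9 genes whose window holds the E-box are printed: 6 that were called higher, and ATP6V0B, ATP6V1G1 and CTSF, which were not called. Each stretch runs 5′ to 3′ on the gene's own strand, and capitals mark CACGTG, which is a palindrome and so reads the same on both strands. LAMP1 was read from chr13:113297030-113297233 on the plus strand, MCOLN1 from chr19:7522566-7522623 on the plus strand and CTSA from chr20:45891276-45891332 on the plus strand. CTSD was read from chr11:1763952-1763991 on the minus strand and ATP6V0D1 from chr16:67481194-67481233 on the minus strand. ATP6V0E2 was read from chr7:149872879-149872918 and ATP6V1G1 from chr9:114587694-114587733, both on the plus strand. ATP6V0B was read from chr1:43974886-43974943 on the plus strand and CTSF from chr11:66568635-66568746 on the minus strand.
LAMP1: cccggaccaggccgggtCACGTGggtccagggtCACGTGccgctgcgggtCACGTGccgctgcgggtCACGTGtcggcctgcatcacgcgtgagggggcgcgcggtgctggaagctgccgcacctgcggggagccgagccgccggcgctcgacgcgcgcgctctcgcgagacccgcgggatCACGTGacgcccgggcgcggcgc
MCOLN1: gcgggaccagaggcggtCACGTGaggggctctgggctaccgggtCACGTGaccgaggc
CTSA: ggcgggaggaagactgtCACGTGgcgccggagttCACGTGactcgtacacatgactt
CTSD: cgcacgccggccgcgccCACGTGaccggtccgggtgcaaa
ATP6V0D1: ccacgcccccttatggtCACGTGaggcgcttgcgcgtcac
ATP6V0E2: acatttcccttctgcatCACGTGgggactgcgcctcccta
ATP6V1G1: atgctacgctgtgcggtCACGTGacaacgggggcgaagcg
ATP6V0B: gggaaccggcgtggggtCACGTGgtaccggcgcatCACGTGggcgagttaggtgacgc
CTSF: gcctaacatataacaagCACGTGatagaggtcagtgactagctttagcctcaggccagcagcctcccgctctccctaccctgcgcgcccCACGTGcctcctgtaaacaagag

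The copies began between 192 bases and 1 base before the annotated starts. In CTSA the 2 copies began 42 and 25 bases before the start, and in MCOLN1 the 2 copies began 41 and 14 bases before it. The single copies of CTSD, ATP6V0D1, ATP6V0E2 and ATP6V1G1 began 47, 59, 72 and 58 bases before the start. ATP6V0B had copies at 57 and 39 bases and CTSF at 123 and 51 bases before the start. LAMP1 held 6 copies in its window, beginning 192, 176, 159, 142, 28 and 1 bases before the start, and the first 5 are printed. The second copy in MCOLN1 and the copy in ATP6V1G1 had GT before and AC after the E-box, the full CLEAR palindrome.

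The E-box stood in the promoters of 9 of the 34 genes (26.5%), against 8.77% of the 27305 genes in the table. Among tested genes with a window, the E-box stood in 9 of 27 (33.3%), against 12.2% of 11907 others. With a T in front (TCACGTG, either strand) it was again in 9 of 34, against 4.49% of all genes. The full palindrome, with GT before and AC after, was found in 2 of 34 (5.88%) and in 0.421% of all genes. All these motifs overlap, since each contains CACGTG. A match describes letters in this window and says nothing about binding.

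All 9 genes with the E-box were tested. LAMP1, MCOLN1, CTSA, CTSD, ATP6V0D1 and ATP6V0E2 were higher and ATP6V0B, ATP6V1G1 and CTSF were not called. None of the 9 was called lower by edgeR, DESeq2 or limma-voom, and 1, ATP6V1G1, was lower at an unadjusted p under 0.05. Of the 18 tested genes whose window lacked the E-box, 4 were higher, 7 were lower and 7 were not called. The median log2 fold change was 0.29 with the E-box and -0.07 without. Among 1454 other tested genes with the E-box 20% were higher and 21% lower, and among 10453 others without it 17.5% were higher and 21.6% lower. GC content moved with this split: the median over transcripts was 58.1% for the 9 genes with the E-box and 52.1% for the 18 without. After each library's trend with transcript length and GC content was removed, the counts were 6 higher and 0 lower with the E-box, and 3 higher and 6 lower without it. The medians were then 0.20 and -0.03. Without library SMG2, ATP6V1G1 was called lower (adjusted p = 0.0256). These counts were drawn up after the calls were known and carry no test.

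**Figure D2:**
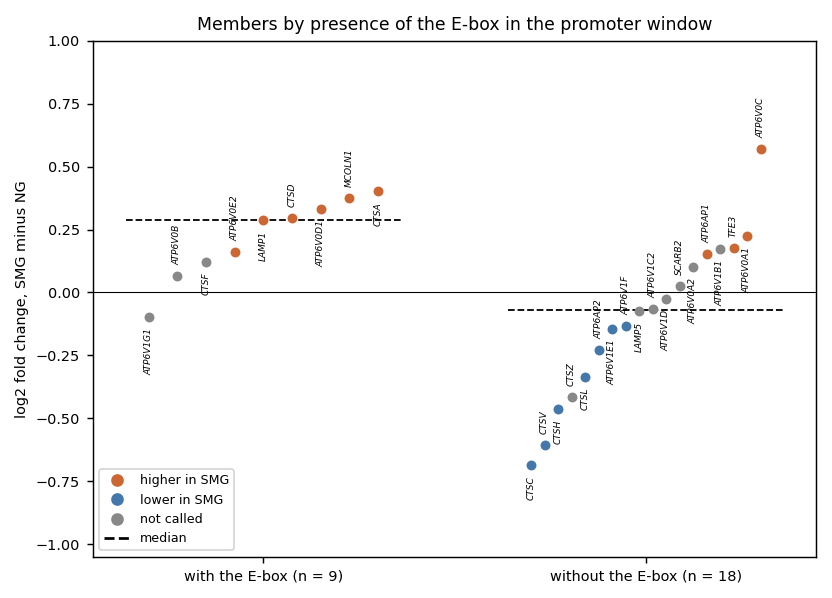
log2 fold change (SMG minus NG) of the 27 tested genes with a RefSeq promoter, split by whether the 300-base window holds CACGTG; each point is a gene, coloured by its call. With the E-box 6 were higher and none was lower, and without it 4 were higher and 7 lower.

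The V0 sector holds the ring of proteolipid subunits that turns in the membrane, the large subunit a beside it and the subunits d and e. Of 7 tested V0 genes, 4 rose (57.1%), 1 fell (14.3%) and 2 were not called. Over all tested genes 17.3% were higher and 18.5% lower, and 22.7% and 26.3% among those of 10 CPM or more. ATP6V0A1, the isoform of subunit a that is abundant in neurons and on synaptic vesicles, read 150.1, 155 and 148 CPM in the 3 NG libraries. It read 176, 177 and 176 CPM in the 3 SMG libraries, all above NG. It rose by 0.22 ± 0.03 (SE), or 1.17-fold (edgeR adjusted p = 8.03e-06). ATP6V0D1, the subunit that joins the ring to the central stalk, read 52.0, 52.2 and 43.7 CPM in NG and 62.7, 63.9 and 59.9 CPM in SMG. The SMG libraries were again all higher, and the gene rose by 0.33 ± 0.06 (edgeR adjusted p = 5.03e-05).

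The small subunit e has a pair of isoforms, and they went opposite ways. ATP6V0E1 read 30.8, 32.9 and 33.4 CPM in NG and 26.0, 27.5 and 26.3 CPM in SMG. The SMG libraries all lay below NG, and the log2 fold change was -0.28 ± 0.06 (edgeR adjusted p = 0.000324). ATP6V0E2 read 56.6, 55.6 and 55.2 CPM in NG and 62.0, 61.1 and 64.2 CPM in SMG. Here all SMG values were higher, at 0.16 ± 0.04 (edgeR adjusted p = 0.00532). Per kilobase of exon, the ratio of ATP6V0E1 to ATP6V0E2 does not depend on library scaling. It stood at 2.26, 2.46 and 2.52 in NG and at 1.74, 1.87 and 1.71 in SMG, without overlap. In CPM ATP6V0E2 was the higher in each library, so which of the 2 stood higher depends on the division by exon length. As the 2 genes separated in opposite directions, their ratio had to separate too, and it is no further support.

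ATP6V0C, the main proteolipid of the ring, is an uncertain case. It read 4.38, 5.42 and 2.93 CPM in NG and 5.19, 6.92 and 6.79 CPM in SMG, so the groups overlapped. The log2 fold change was 0.57 ± 0.17 (edgeR adjusted p = 0.0138). The call was lost without NG1 (0.0508), SMG2 (0.0657) or SMG3 (0.0681). In GENCODE 29, 57.5% of its exon bases are shared on the same strand with another annotated gene and 14.6% with a second one. Neither of those had more than 1 count in a library, and reads in shared exons may not have been assigned to ATP6V0C.

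The other V0 genes showed less. ATP6V0B, the second proteolipid, read 55.9, 62.7 and 60.0 CPM in NG and 62.6, 60.4 and 63.5 CPM in SMG. These overlapped, and the difference was 0.07, with a 95% interval of -0.03 to 0.16. ATP6V0A2, the isoform of subunit a known from the Golgi, had means of 49.1 ± 0.706 (SD, n = 3) CPM in NG and 52.6 ± 0.783 (SD, n = 3) CPM in SMG. Its groups did not overlap but it missed the threshold at 0.10 ± 0.05 (edgeR adjusted p = 0.10). It was called under library size scaling (0.0477) and with the length and GC trend removed (0.0324).

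ATP6V0A4, the isoform of kidney, stayed at or under 0.471 CPM. ATP6V0D2, the isoform of osteoclasts and kidney, had 0 counts in every library, which allows at most 0.131 to 0.185 CPM in a library (3 counts; counting error alone).

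The V1 sector is the ATP-hydrolysing head with its stalks. Of 12 tested genes with a V1 symbol, 2 rose (16.7%), 2 fell (16.7%) and 8 were not called. These shares are near those of all tested genes, 17.3% higher and 18.5% lower. ATP6V1A, the catalytic subunit, read 149, 146 and 151 CPM in NG and 158, 149.7 and 154 CPM in SMG. The groups overlapped, and the difference was 0.05, with a 95% interval of -0.02 to 0.12. With the length and GC trend removed it was 0.12 and was called (edgeR adjusted p = 0.00222). ATP6V1B2, the nucleotide-binding partner of the catalytic subunit, read 208, 207 and 213 CPM in NG and 208, 192 and 199.8 CPM in SMG. It too overlapped, at -0.07 with a 95% interval of -0.14 to 0.01.

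The stalks gave small calls in both directions. ATP6V1C1, the subunit that clamps V1 onto V0 and is released when the pump comes apart, read 61.3, 58.6 and 63.7 CPM in NG and 65.1, 66.9 and 68.8 CPM in SMG. The groups did not overlap, and it rose by 0.13 ± 0.05 (edgeR adjusted p = 0.0264). ATP6V1E1, of the outer stalks, read 75.4, 77.7 and 70.9 CPM in NG and 67.5, 68.7 and 66.6 CPM in SMG. Every SMG library was lower, at -0.14 ± 0.04 (edgeR adjusted p = 0.0106). ATP6V1F, of the central rotor, read 66.9, 62.9 and 60.2 CPM in NG and 58.4, 59.2 and 56.1 CPM in SMG. Those groups lay close but apart, at -0.13 ± 0.05 (edgeR adjusted p = 0.0283). KCP, on the opposite strand, overlaps 23.7% of the exon bases of ATP6V1F and had means of 0.372 and 0.588 CPM.

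These 3 calls were lost when single libraries were left out. ATP6V1C1 was lost without NG1 (0.0690), NG2 (0.124), SMG2 (0.0717) or SMG3 (0.136) and with DESeq2 (0.0636). ATP6V1E1 was lost without NG1, NG2 or SMG3 and with the trend removed (-0.08, adjusted p = 0.134). ATP6V1F was lost without NG1 (-0.09, adjusted p = 0.241), SMG1 (0.0587) or SMG3 (0.141), with DESeq2 (0.0810), under library size scaling (0.0647) and without the filter (0.0520).

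ATP6V1G1, of the outer stalks, had the highest level per kilobase of the whole group, 104 CPM per kilobase in NG and 97.3 in SMG. It read 131, 133 and 143 CPM in NG and 127, 134 and 119 CPM in SMG, which overlapped, and its difference of -0.10 ± 0.04 missed the threshold (edgeR adjusted p = 0.0745). ATP6V1D and ATP6V1H, of the rotor and the regulatory part, differed by -0.03 and 0.07 and were not called.

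ATP6V1FNB bears the pump's name as a neighbour of ATP6V1F and encodes no subunit. It read 1.56, 0.924 and 1.10 CPM in NG and 2.64, 2.33 and 2.10 CPM in SMG. Its SMG values all lay above NG, and it rose by 0.94 ± 0.21, or 1.92-fold (edgeR adjusted p = 0.000813), the widest fold among the 39 genes, at a low level.

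The other isoforms of V1 had low counts. ATP6V1B1, an isoform of kidney and inner ear, had means of 3.58 and 4.02 CPM, and 62.4% of its exon bases are shared with VAX2 on the same strand. The ratio of ATP6V1B2 to ATP6V1B1 per kilobase ran at 20.8, 20.3 and 19.4 in NG and 19.7, 15.2 and 16.9 in SMG, and these overlapped. ATP6V1C2 and ATP6V1E2 were not called, at means of 2.22 and 3.38 CPM in NG and 2.11 and 2.78 CPM in SMG. PDIA6, on the opposite strand, overlaps 29.7% of the exon bases of ATP6V1C2 and was itself lower, at means of 136 and 123 CPM, and with strand use unknown the 2 genes' reads cannot be told apart there. ATP6V1E2 was called lower without NG2 (adjusted p = 0.0320). ATP6V1G2, the isoform of subunit G known from brain, had 0 to 3 counts in each library, as did many of its neighbours in the genome. ATP6V1G2-DDX39B and ATP6V1G3 had no counts.

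**Figure D3:**
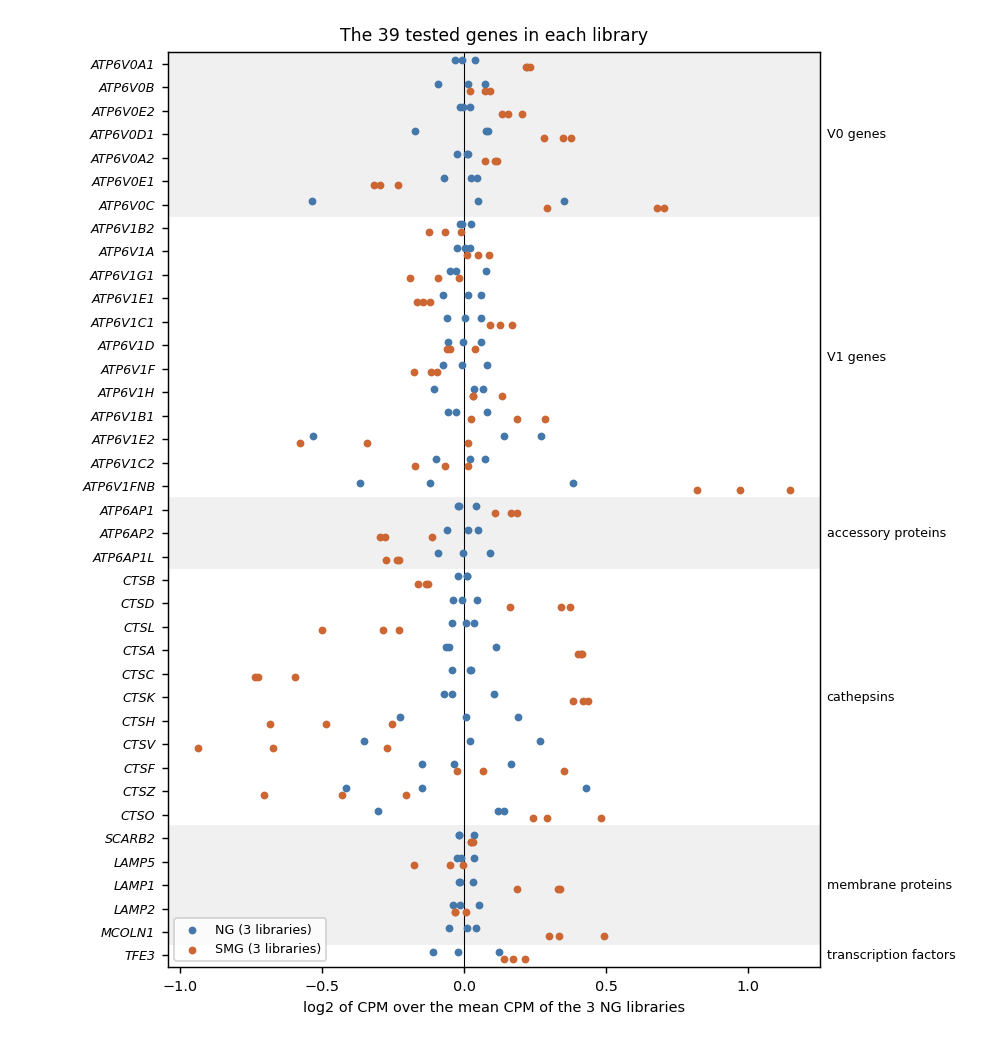
Level of each tested gene in the 6 libraries relative to the gene's mean over the 3 NG libraries, as log2 on the horizontal axis, grouped by role; blue points are NG and orange points SMG. For LAMP1, ATP6V0A1 and CTSC the 3 points of a group lie apart from those of the other, while for LAMP2 and ATP6V1D they are mixed.

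Accessory proteins of the pump also differed in direction. ATP6AP1 (Ac45), which helps to assemble and guide the pump, read 119.7, 115 and 115 CPM in NG and 132, 131 and 126 CPM in SMG. All SMG values were higher, and it rose by 0.15 ± 0.04 (edgeR adjusted p = 0.00161). With the length and GC trend removed the value was 0.07 and the call was lost (0.0932). ATP6AP2, known as the prorenin receptor, read 91.5, 87.0 and 93.7 CPM in NG and 84.0, 74.9 and 73.9 CPM in SMG. Each SMG library was lower, at -0.23 ± 0.05 (edgeR adjusted p = 0.000353), and at -0.15 with the trend removed (adjusted p = 0.00485). ATP6AP1 stood to ATP6AP2 per kilobase as 2.56, 2.59 and 2.39 in NG and 3.09, 3.41 and 3.33 in SMG. This ratio restates the 2 opposite changes and is no further support.

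ATP6AP1L, a relative of ATP6AP1, read 7.92, 7.45 and 8.47 CPM in NG and 6.75, 6.78 and 6.57 CPM in SMG. These did not overlap, but at -0.25 ± 0.10 it missed the threshold (edgeR adjusted p = 0.0564), and it was called without NG2 (0.0480).

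Summed per kilobase over all genes of a sector, V0 was at 71.3 ± 2.28 (SD, n = 3) CPM per kilobase in NG and 75.0 ± 0.897 (SD, n = 3) in SMG. V1 summed to 303 ± 2.54 (SD, n = 3) in NG and 288 ± 8.12 (SD, n = 3) in SMG. ATP6V1G1 and ATP6V1F together made up most of the V1 sum, with 34.4% and 26.5% in NG and 33.7% and 25.5% in SMG. Such sums follow the highest genes, and they describe mRNA levels, not assembled pumps.

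Cathepsins divided into genes that rose and genes that fell. Of 11 tested, 3 rose (27.3%), 5 fell (45.5%) and 3 were not called, where 17.3% and 18.5% of all tested genes were higher and lower. CTSD, the main aspartic protease of the lysosome, read 32.8, 34.0 and 32.1 CPM in NG and 36.8, 42.7 and 41.7 CPM in SMG. All SMG values were higher, and it rose by 0.30 ± 0.06, or 1.23-fold (edgeR adjusted p = 0.000211). With the length and GC trend removed it rose by 0.17 (adjusted p = 0.0165). In GENCODE 29 it shares 41.7% of its exon bases on the same strand with another gene, which had 0.077 CPM or less on average. Reads in those shared exons may not have been assigned to CTSD, so its level may be understated. CTSA, a serine carboxypeptidase that also protects beta-galactosidase and neuraminidase, read 19, 16.9 and 16.8 CPM in NG and 23.4, 23.4 and 23.2 CPM in SMG. It rose by 0.40 ± 0.07 (edgeR adjusted p = 2.92e-05) with no overlap. Of its exon bases, 17.7% are overlapped by NEURL2 on the opposite strand.

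CTSK, a cysteine protease best known from osteoclasts, read 4.53, 4.003 and 4.08 CPM in NG and 5.62, 5.48 and 5.69 CPM in SMG. The groups stood apart, and it rose by 0.40 ± 0.12 (edgeR adjusted p = 0.00857), but DESeq2 did not call it (0.0577).

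Of 9 tested cysteine cathepsins of the papain family, 5 fell, CTSK rose and CTSF, CTSO and CTSZ were not called. Over all tested genes 18.5% were lower, and 26.3% among those of 10 CPM or more. The family was set apart with the calls known, leaves out CTSA and CTSD, which rose, and carries no test. CTSB, the highest of the cathepsins per kilobase as counted, read 139, 142 and 142 CPM in NG and 129, 126 and 128 CPM in SMG. All SMG values were lower, at -0.14 ± 0.03 (edgeR adjusted p = 0.00199). CTSL read 30.8, 31.9 and 32.5 CPM in NG and 27.0, 26.0 and 22.4 CPM in SMG. It fell without overlap, at -0.33 ± 0.06 (edgeR adjusted p = 0.000142). CTSC, a dipeptidyl peptidase that activates other proteases, read 15.1, 15.03 and 14.4 CPM in NG and 9.82, 8.89 and 8.98 CPM in SMG. At -0.69 ± 0.08 (edgeR adjusted p = 2.92e-07) this was the widest fall, to 0.621 of the NG level.

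CTSH and CTSV were lower at low levels. CTSH, an aminopeptidase, read 4.20, 3.57 and 4.75 CPM in NG and 2.60, 3.50 and 2.98 CPM in SMG. The groups nearly met, and it fell with -0.46 ± 0.15 (edgeR adjusted p = 0.0158). The call was lost without NG1 (0.0531), NG3 (0.0809), SMG1 (0.0886) or SMG3 (0.0509) and with DESeq2 (0.0780). CTSV, a close relative of CTSL, read 4.10, 4.87 and 3.17 CPM in NG and 3.35, 2.11 and 2.54 CPM in SMG. These overlapped, and at -0.61 ± 0.17 it was called (edgeR adjusted p = 0.00741) but not without SMG2 (0.0597).

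Ratios between several cathepsins did not overlap between the groups. CTSD stood to CTSB per kilobase as 0.562, 0.570 and 0.537 in NG and as 0.679, 0.808 and 0.773 in SMG. CTSD stood to CTSL as 0.807, 0.807 and 0.747 in NG and 1.03, 1.24 and 1.41 in SMG. Which of the 2 stood higher in NG depends on the division by exon length. In CPM, CTSD was already above CTSL in NG1 (32.8 and 30.8) and NG2 (34.0 and 31.9). CTSA stood to CTSC as 2.46, 2.20 and 2.28 in NG and 4.64, 5.14 and 5.04 in SMG. As the genes of each pair separated in opposite directions, their ratios had to separate too, and they are no further support. These pairs were chosen after their values were seen and carry no test. The cathepsin sum was 52.8 ± 0.459 (SD, n = 3) CPM per kilobase in NG and 51.4 ± 0.640 (SD, n = 3) in SMG.

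CTSF, CTSO and CTSZ were not called, at 2.41 CPM or less on average. CTSZ had a difference of -0.42 with a 95% interval of -0.92 to 0.09. The values of CTSO did not overlap between the groups, but at means of 0.608 and 0.771 CPM its interval ran from -0.30 to 0.96. CTSS, CTSE, CTSW and CTSG, known from immune cells, stomach or blood, stayed at or under 0.549 CPM in each library.

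**Figure D4:**
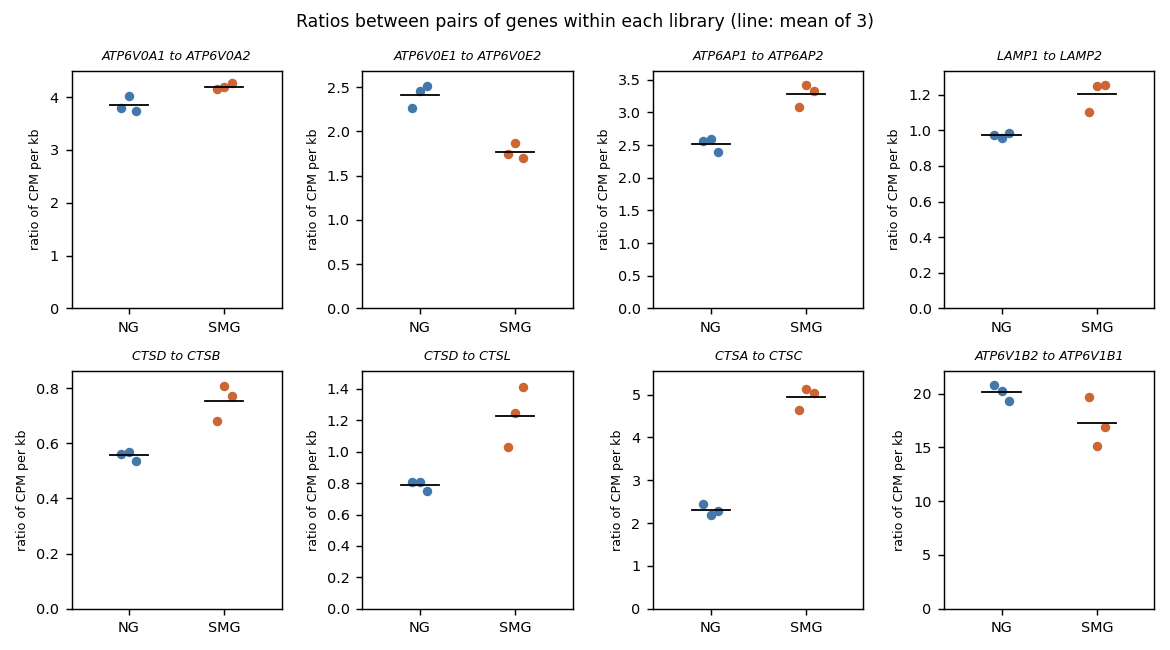
Ratio of the first to the second gene of selected pairs in each library, per kilobase of exon; blue points are the 3 NG libraries and orange points the 3 SMG libraries. The ratio CTSA to CTSC lay between 2.20 and 2.46 in NG and between 4.64 and 5.14 in SMG.

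Of 5 tested membrane proteins, 2 rose (40%) and 3 were not called. In all, 35.8% of tested genes were called, and 49% of those of 10 CPM or more. None of the 5 was called lower by edgeR, DESeq2 or limma-voom, or was lower at an unadjusted p under 0.05. As 18.5% of all tested genes were lower, 5 genes are too few to read this as a trait of the group. LAMP1, an abundant glycoprotein of the lysosomal membrane, read 85.9, 88.6 and 85.7 CPM in NG and 98.6, 109 and 109.7 CPM in SMG. All SMG values were higher, and it rose by 0.29 ± 0.04, or 1.22-fold (edgeR adjusted p = 4.40e-06). LAMP2, its partner, which also serves chaperone-mediated autophagy, read 85.0, 89.1 and 83.6 CPM in NG and 86.2, 84.1 and 84.0 CPM in SMG. The groups overlapped, and the difference of -0.02 had a 95% interval of -0.10 to 0.06. LAMP1 stood to LAMP2 per kilobase as 0.972, 0.958 and 0.987 in NG and 1.10, 1.25 and 1.26 in SMG.

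MCOLN1 encodes TRPML1, a calcium channel of the lysosomal membrane. It read 10.2, 10.4 and 9.75 CPM in NG and 12.7, 14.2 and 12.4 CPM in SMG. Again the SMG libraries were all higher, and it rose by 0.38 ± 0.09, or 1.30-fold (edgeR adjusted p = 0.00118). SCARB2 (LIMP-2), which carries glucocerebrosidase to the lysosome, read 192, 192 and 199 CPM in NG and 199, 198 and 198 CPM in SMG. These overlapped, at 0.03 with a 95% interval of -0.04 to 0.09. LAMP5, a family member of neurons, read 108, 111 and 107 CPM in NG and 95.9, 108 and 105 CPM in SMG. They overlapped as well, at -0.07 with a 95% interval of -0.16 to 0.01. Per kilobase LAMP5 was the highest of the membrane proteins, at 53.1 CPM per kilobase in NG and 50.4 in SMG, and LAMP3, known from dendritic cells, was at or under 0.493 CPM.

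Of the transcription factors, TFE3 was by far the higher. TFE3 read 30.8, 28.9 and 34.0 CPM in NG and 34.5, 35.2 and 36.2 CPM in SMG. The groups nearly met, and it rose by 0.18 ± 0.06 (edgeR adjusted p = 0.0191). That call was lost with DESeq2 (0.0568), with the length and GC trend removed (0.07, adjusted p = 0.455) and without NG1 (0.0727), NG2 (0.116), SMG2 (0.0542) or SMG3 (0.0914). TFEB read 0.141, 0.554 and 0.366 CPM in NG and 0.519, 0.180 and 0.263 CPM in SMG, too few for testing. The level of a factor's mRNA does not show whether its protein is in the nucleus.

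GC content ran along with the differences. Across the 39 tested genes the log2 fold change correlated with GC content of the transcript at a Pearson r of 0.48 and a Spearman rho of 0.47, and with log2 transcript length at r = 0.03. Over 17193 genes with both values the correlation with GC content was 0.26. These are correlations across genes measured in the same 6 libraries, and genes are not independent replicates. With the trend removed, 13 of the 39 genes were higher (15.1% of all genes) and 8 were lower (16.8% of all genes). Of the 22 calls, 19 kept their direction and passed, and ATP6AP1, TFE3 and ATP6V1E1 did not. The part of GC content in the differences was not tested further.

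**Figure D5:**
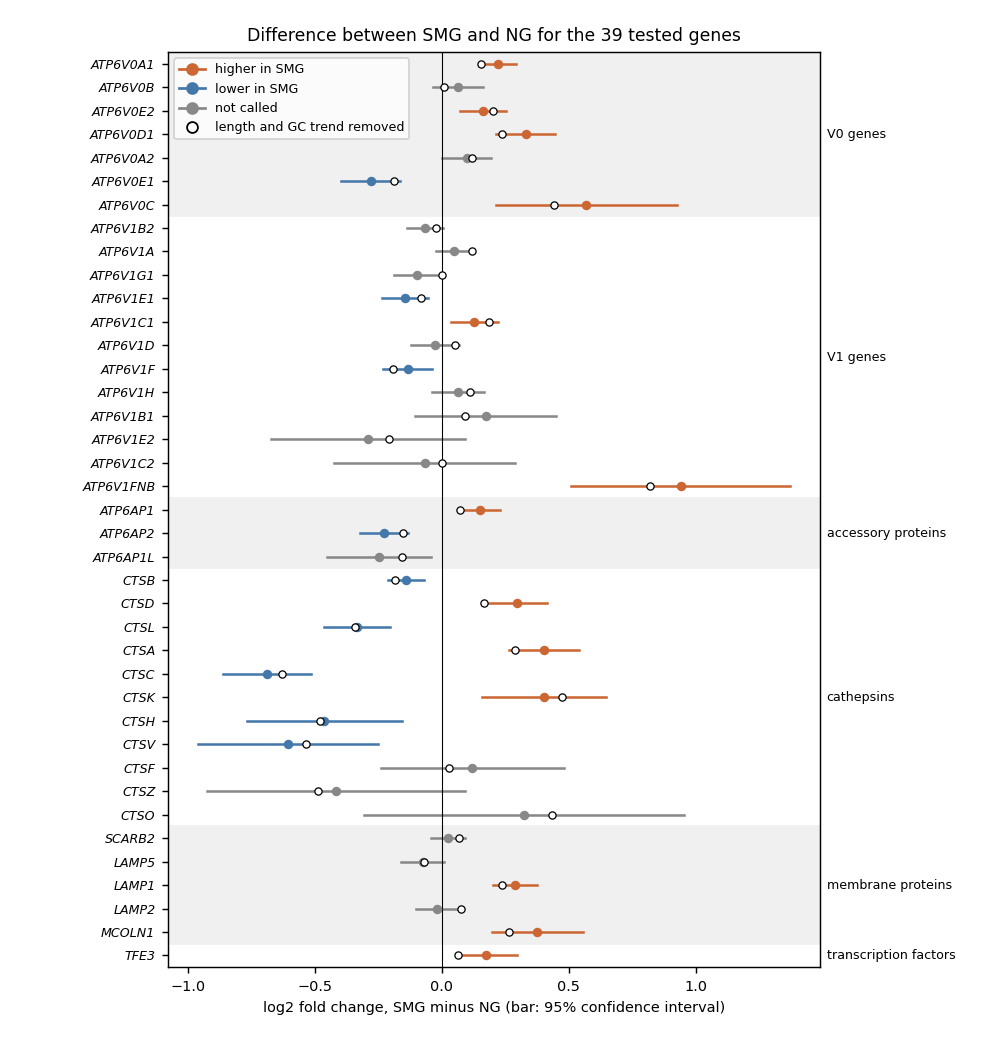
log2 fold change (SMG minus NG) of the 39 tested genes with 95% confidence intervals as bars, grouped by role and coloured by call; open circles show the value after the trend with transcript length and GC content was removed. LAMP1 sits at 0.29 and LAMP2 at -0.02, and the cathepsins reach from -0.69 for CTSC to 0.40 for CTSA and CTSK.

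Beyond the 50 genes, 131 genes of the lysosome and its control were read from 9 lists. Of these, 122 were tested, and 29 were higher (23.8%) and 30 lower (24.6%), with a median log2 fold change of 0.01. The shares over all tested genes were 17.3% and 18.5%, and 22.7% and 26.3% among genes of 10 CPM or more. Called in either direction were 53.1% of the hydrolases, 52.6% of the membrane and export proteins, 57.1% of the activators and 90% of the sorting genes. The Ragulator list had 43.8%, the autophagy genes 31.8% and the pump's partners 50%. Over all tested genes this share was 35.8%, and among those of 10 CPM or more it was 49%. Removing the length and GC trend left 25 higher and 27 lower in all. Among 32 tested hydrolases, the enzymes that degrade sugars, lipids and proteins, 8 rose and 9 fell. GALNS and IDUA, which cut glycosaminoglycans, rose by 0.57 ± 0.08 and 0.51 ± 0.10, from 11.6 to 17.2 CPM and from 7.63 to 10.9 CPM (edgeR adjusted p = 1.93e-06 and 0.000140). IDUA was at 0.33 with the trend removed. MANBA, the beta-mannosidase, was lower by -0.36 ± 0.06 (edgeR adjusted p = 4.88e-05). IDS, the highest that was not called, had means of 162 and 172 CPM.

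Among 19 tested membrane, lipid and export proteins, 5 rose and 5 fell. DESeq2 called 5 higher and 2 lower, and 6 were higher and 3 lower with the trend removed. The lysosomal ion channels and exchangers TMEM175, CLCN7 and TPCN2 had the widest changes of the list. TMEM175, a potassium and proton channel, rose by 0.47 ± 0.07, from 17.7 to 24.7 CPM (edgeR adjusted p = 2.85e-06). CLCN7, the chloride-proton exchanger that works beside the pump, rose by 0.43 ± 0.06, from 32.5 to 44.0 CPM (edgeR adjusted p = 1.22e-06), and by 0.24 with the trend removed. TPCN2, a channel for calcium and sodium, rose by 0.38 ± 0.09 (edgeR adjusted p = 0.00119). HGSNAT, an acetyltransferase, was not called at 105 and 109 CPM.

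Among 7 activators and cofactors, 1 rose and 3 fell. NPC2, which hands cholesterol to NPC1, was lower by -0.40 ± 0.06, from 32.6 to 24.7 CPM (edgeR adjusted p = 5.25e-06). GM2A was lower by -0.25 ± 0.06, and PSAP, the precursor of the saposins, was not called at 554 and 537 CPM. In this list DESeq2 called 0 higher and 2 lower, and with the trend removed 0 were higher and 4 lower.

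Among 10 genes of mannose 6-phosphate sorting, which tags hydrolases and carries them to the lysosome, 7 rose and 2 fell. GNPTG and NAGPA, of the enzymes that build the tag, rose by 0.39 ± 0.07 and 0.38 ± 0.12 (edgeR adjusted p = 0.000112 and 0.0129). GGA1, a sorting adaptor, rose by 0.27 ± 0.05 (0.14 with the trend removed), and AP1G1 was not called at 175 and 171 CPM. The receptors of the tag were both called: M6PR was lower by -0.25 ± 0.04 (80.4 to 67.7 CPM, edgeR adjusted p = 4.36e-05) and IGF2R was higher by 0.15 ± 0.03 (201 to 223 CPM, edgeR adjusted p = 0.000645). IGF2R was at 0.08 with the trend removed. Both receptors were named after their values were seen.

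Among 16 genes of the Ragulator, Rag and FLCN system, which senses nutrients on the lysosome, 4 rose and 3 fell. FLCN rose by 0.36 ± 0.06 and MTOR by 0.19 ± 0.04 (0.10 with the trend removed), RRAGD was lower by -0.19 ± 0.05, and FNIP2 was not called at 107 and 115 CPM. Of 22 autophagy genes, 3 rose and 4 fell, and DESeq2 called 3 higher and 1 lower. With the length and GC trend removed 1 was higher and 1 lower. ULK1, the kinase that starts autophagy, rose by 0.49 ± 0.05, from 95.2 to 134 CPM (edgeR adjusted p = 7.31e-07), and by 0.30 with the trend removed. PLEKHM1, an adaptor for fusion with the lysosome, rose by 0.48 ± 0.14 but was not called with the trend removed (adjusted p = 0.0557), GABARAPL1 was lower by -0.19 ± 0.05, and RAB7A was not called at 191 and 187 CPM.

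Among 10 tested partners and assembly factors of the pump, 1 rose and 4 fell. OXR1, of the TLDc family that binds V1, was lower by -0.29 ± 0.04, from 93.9 to 76.8 CPM (edgeR adjusted p = 6.01e-06). DMXL1, of the complex that puts V1 and V0 together, was lower by -0.20 ± 0.04 (edgeR adjusted p = 0.000382). ROGDI, a further member of that complex, rose by 0.20 ± 0.06 (edgeR adjusted p = 0.00895) and was not called with the trend removed (0.09, adjusted p = 0.191). VMA21, a chaperone of V0 assembly, was not called at 94.9 and 99.1 CPM.

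Of 4 tested cathepsin inhibitors, and of MITF, a relative of TFEB, and ZKSCAN3, a repressor of lysosomal genes, none was called by edgeR, DESeq2 or limma-voom, and none had an unadjusted p under 0.05. CST3, the secreted cystatin, had means of 40.3 and 38.2 CPM. ZKSCAN3 had means of 25.3 and 26.6 CPM, and MITF was at 0.753 and 0.751 CPM.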

How the data were processed

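The deposited table holds raw counts, which the authors made per Ensembl gene and library. The submitters' processing notes name HISAT2, SAMtools, featureCounts, DESeq2 and, as the build, hg19. Per the labels' protocols, 1.3 µg of total RNA was extracted with RNAiso plus and made into libraries with a SMARTER mRNA kit. Versions, the annotation, strand use and the handling of multi-mapping reads are not given in these sources, so reads of overlapping or antisense genes may not be separable.

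The labels gave the groups. Genes that passed filterByExpr were TMM-scaled and tested with edgeR 4.0.16 (glmQLFit, robust, and glmQLFTest) in R 4.3.3. Benjamini-Hochberg adjustment ran over 17803 genes, with a threshold of 0.05, and adjusted p-values are from edgeR where no other tool is named. CPM and log2 fold changes were computed from the deposited counts. The common biological coefficient of variation was 0.0346, and lysosomal genes of 10 CPM or more had a median SE of 0.0463 (log2). Levels per kilobase use exon lengths, and trend corrections use transcript length and GC content, from GENCODE 29, which is of another build and gave no coordinates. Promoters came from RefSeq.

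Members and gene lists were chosen with earlier results of these data known. Genes are described with library values if called or among the 4 highest of their role. Of each list, up to 3 called genes with the largest change and a mean of at least 2 CPM are named, and the highest that was not called. A further gene that this rule names is not reported here. Alternatives were DESeq2 1.42.0, limma-voom (limma 3.58.1), other scalings and filters, protein-coding genes alone, no robust estimation, a replicate block, removal of the length and GC trend, and leaving out each library.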

Additional observations from a re-analysis of the deposited data

How the results depend on the processing

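Over the 17 alternatives, the lysosomal genes called higher numbered 10 to 14 and those called lower 6 to 10, against 13 and 9, and none of the 39 tested genes was called in opposite directions. Leaving out each library in turn gave 10 to 13 higher and 6 to 10 lower, with 4961 to 6092 genes called in all (6376 with all libraries); for the 9 lists it gave 22 to 29 higher and 21 to 28 lower. Of the 22 calls, 17 were kept by DESeq2, 21 under library size scaling, 21 without the filter, 19 with the length and GC trend removed, 16 to 21 without single libraries, and all 22 under the other alternatives. Calls lost are named beside the genes. The replicate block gave 13 higher and 9 lower, with 6333 genes called in all, and changed no call among the lysosomal genes. The labels do not say whether the replicate numbers, which both groups share, pair libraries, and this was not settled here. Depth limits the genes under about 1 CPM.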

Other observations

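ATP6V1G2 was listed near 0 together with most of its neighbours. Of 65 protein-coding genes within 500 kilobases of it in GENCODE 29, 7 passed the filter on low counts (10.8%), against 70.8% of the 19263 protein-coding genes in the table, and 1 had a mean of 10 CPM or more. CSNK2B and LSM2, which encode a kinase subunit and an RNA-binding protein used by most cells, had at most 1 count in a library. DDX39B, an RNA helicase, had 15 to 34 counts. The low counts of ATP6V1G2 therefore do not show that these neurons lack it. NEU1, a lysosomal sialidase, and the markers AIF1 and POU5F1 lie in the same stretch, and their values carry the same limit. The cause was not tested.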
